A study of Mus musculus with 10 samples.

Results

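Genes whose mRNA separated K7M2 osteosarcoma cells carrying wild-type or T567D ezrin from cells carrying an empty vector or T567A ezrin were sought in 8 of 10 poly-A RNA libraries. K7M2 is a mouse osteosarcoma cell line, grown here without treatment. In the 4 derived lines the endogenous ezrin gene had been disrupted by CRISPR/Cas9 (Ezrin -/-) before stable transfection with a vector. The active-ezrin lines, so called by their constructs, were the wild-type line, given wild-type ezrin, and the T567D line, whose ezrin has aspartate in place of threonine at residue T567 and mimics its phosphorylated form. They were set against the vector/T567A lines, which were the empty-vector line, given a vector without ezrin, and the T567A line, whose alanine cannot be phosphorylated. Each line had 2 libraries, so 4 stood against 4. The 2 libraries of the unedited parental cells served as a baseline and in the estimate of the spread. A gene was called set apart when both lines of one side lay above both lines of the other with an adjusted p under 0.05 in each of the 4 comparisons of a line with a line. The comparison asks which mRNAs follow ezrin that can be in, or mimics, the phosphorylated state. Of 12595 genes tested, 343 were set apart, 171 higher and 172 lower with wild-type and T567D ezrin.

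Ezrin belongs to the ERM family with moesin and radixin. In its folded form it stays in the cytoplasm, and in its open form its amino-terminal FERM domain binds membrane proteins and lipids while its carboxy-terminal end binds actin filaments. Phosphorylation of the conserved threonine in the actin-binding end favours the open form, and ezrin has long been studied in osteosarcoma for its link to metastasis. The codon that the 2 mutant vectors alter was located in the mouse GENCODE transcript of Ezr, in exon 13 of 13, on the minus strand of chromosome 17 (GRCm38, 6739363 to 6739365). It is shown with its neighbours because it is the single position in which the 3 ezrin inserts differ by name, with the threonine codon in capitals.
Ezr coding strand (chr17:6739348-6739380, minus strand, GRCm38): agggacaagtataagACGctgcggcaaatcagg
The labels name neither the species of the vector cDNA nor the codons used for alanine and aspartate.

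Levels are given in CPM, read counts relative to a TMM-scaled library size, and differences as log2 fold changes, wild type or T567D minus empty vector or T567A, with their standard error (SE). Total counts per library were 16790455 to 17157736 in the wild-type and T567D libraries, 14679424 to 18230763 in the empty-vector and T567A libraries, and within these bounds in the parental ones. Mitochondrially encoded genes took 1.01% to 1.33% of the counts in wild-type and T567D libraries and 0.870% to 1.90% in empty-vector and T567A libraries, the 2 highest shares being those of T567A. Each construct was present in 1 line and the titles of the 4 lines share a tag read here as 1 disrupted clone, so the construct and the history of its line cannot be told apart. Whether both libraries of a line were grown as separate cultures is not stated in the labels. The p-values therefore rest on the spread within pairs of libraries, which may be technical. The labels give neither ezrin protein nor its phosphorylation, so that wild-type ezrin counts as active by its construct alone. Of the markers of osteoblasts, the labelled cell type, Runx2, Alpl, Spp1, Col1a1 and Col1a2 were detected in every library, whereas Sp7, Bglap and Ibsp had at most 0.278 CPM in any of the 8 derived libraries and Dlx5 had no counts in them.

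Ezr mRNA itself did not separate the sides. Ezr, on the minus strand of chromosome 17, 6738041 to 6782784 (GRCm38), had 230.4 and 233 CPM with wild-type ezrin and 204 and 181 with T567D, against 72.4 and 72.9 with the empty vector and 248 and 253 with T567A. The empty-vector libraries were the low ones, and the T567A libraries lay above all 4 libraries of the other side. Ezr in wild type was 1.67 above the empty vector on the log2 scale and -0.11 relative to T567A, and the second difference missed the test (adjusted p = 0.17, edgeR's quasi-likelihood test, Benjamini-Hochberg adjusted over all genes). The vector/T567A lines thus held the lowest and the highest Ezr mRNA of the study. In bulk RNA, fewer cells with a transcript and less of it per cell cannot be told apart. Counts per gene do not separate vector mRNA from endogenous mRNA and show neither the edit nor the residue. Msn, which encodes moesin, had 534 and 519.9 CPM with wild-type ezrin and 642 and 674 with T567D, against 529.6 and 527 with the empty vector and 385 and 375 with T567A. Moesin mRNA was lowest with T567A, highest with T567D, and overlapped between wild type and empty vector. Rdx, which encodes radixin, had 219 to 247 CPM with wild-type and T567D ezrin against 221 to 249 CPM with the empty vector and T567A, and the ranges overlapped. Per transcript length, on the deposited RPKM scale, Ezr stood at 66.5 in wild type, 55.3 in T567D, 20.7 in empty-vector and 70.2 in T567A cells, and Msn at 78.6, 98.2, 78.3 and 55.4 in the same lines (means, n = 2 libraries each). Of 25 tested genes of the ERM family and its partners, 1 was set apart, the protein kinase C gene Prkca (162 to 194 CPM in the active-ezrin lines against 138 to 146 CPM in the vector/T567A lines), against 2.72% of all genes tested.

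**Figure D1:**
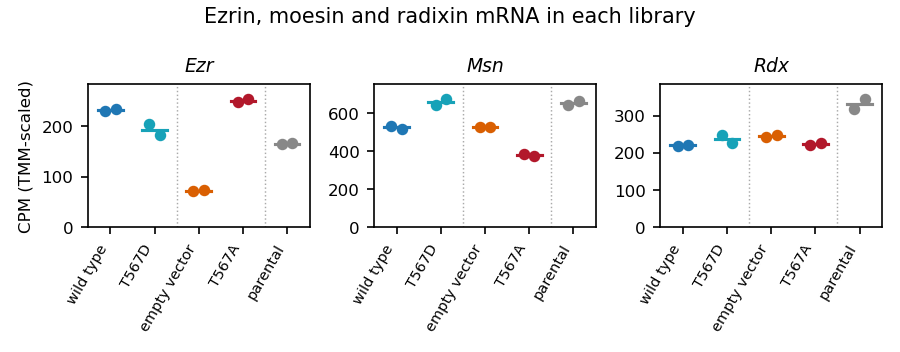
TMM-scaled CPM of Ezr, Msn and Rdx (vertical axes, from 0) in each library of the 5 lines, with points for libraries and bars for the mean of 2. Ezr was at 72.4 and 72.9 CPM in the empty-vector line and at 248 and 253 CPM in the T567A line, so the 2 lines of one side lie at opposite ends.

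The mean difference between the sides, each line with equal weight, passed an adjusted p under 0.05 for 4180 genes (33.2% of those tested), 2052 higher and 2128 lower. For 1303 of these genes the 4 line means did not keep the order of the sides, as for Ezr. The order of the line means alone, with no test, was kept by 2299 genes in the higher direction (18.3%) and 2604 in the lower (20.7%). The 343 set-apart genes (2.72%) passed the test in all 4 line comparisons, and their adjusted p is given as the largest of the 4. In each of them the 4 libraries of one side did not overlap the 4 of the other. This follows largely from the selection and adds no support to the calls. Genes just outside the threshold, such as Crlf3, Ak6 and Ces2g, did not overlap either. Differences were larger among genes that were higher: 57 of 171 exceeded 1.5-fold in all 4 comparisons and 19 exceeded 2-fold, whereas 7 and 1 of the 172 lower genes did. The 2 sets also differed in level. On the side where they were high, the higher genes had a median of 29.5 CPM and the lower genes one of 96.9 CPM. A mean of at least 10 CPM in both lines of that side was reached by 116 and 165 genes. The part of level in the sizes was not tested. The comparisons share libraries, since each line enters 2 of them, so the 4 tests are not independent of each other. The 4 comparisons themselves called 15.6% of genes for wild type against empty vector, 39.6% for wild type against T567A, 17.8% for T567D against empty vector and 44.1% for T567D against T567A. The difference that limited a gene was most often the one between wild type and empty vector, in 71 of the higher and 72 of the lower genes. T567D and wild type differed from each other in 1.34% of genes, and T567A and empty vector in 46.4%.

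With the line as a random block in limma-voom, called the line as unit here, 1078 genes had an unadjusted p under 0.05. An adjusted p under 0.05 was reached by 4 genes (0.0318%). They were Cxcl1 (adjusted p = 3.8e-04), Hmgcs1 (0.004), Psmb8 (0.014) and Ltbp3 (0.045), all 4 also set apart. All genes shared 1 within-line correlation in this fit. The spread between lines was thus not estimated gene by gene, and the p-value of a gene does not measure it. An exact permutation of 2 against 2 lines cannot give a two-sided p below 0.333. The number of set-apart genes depended on single libraries of 3 lines, where the fit without a library assumes that the remaining one varies like those of the other lines. Without wild-type replicate 1 it was 74 higher and 75 lower, and without the other wild-type library 108 and 89. It was 103 and 93 without T567D replicate 3, 77 and 77 without empty-vector replicate 2, and 96 and 77 without empty-vector replicate 3. With upper-quartile scaling the split became 225 higher and 117 lower, and that of the mean difference 2495 higher and 1656 lower. The parental libraries, outside the comparison, also bore on the split. In a fit of the 8 compared libraries only (12423 genes tested) it was 186 higher and 134 lower, and 2187 and 1846 in the mean difference. At the threshold, Synj2, Cenpv and Pogk lay just inside (largest adjusted p of 0.04997 each), and Crlf3, Ak6 and Ces2g just outside (0.05, 0.05 and 0.0505).

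Of the 27 pathway lists examined, cholesterol synthesis had the highest share of set-apart members. Of its 25 tested genes 15 were set apart, all lower with wild-type and T567D ezrin, against 1.37% of all genes tested in that direction. They include Acat2 and Hmgcs1, which build HMG-CoA, the isoprenoid genes Idi1 and Fdps, the squalene synthase gene Fdft1, and the sterol-forming genes Lss, Cyp51, Msmo1 and Dhcr7. They also include the sterol sensor gene Insig1 and the sterol carrier gene Stard4. The median of the mean difference over the 25 genes was -0.56, against 0.0016 over all genes tested, and 23 were called lower (16.9% of all genes) and 0 higher.

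Hmgcs1, on chromosome 13, 119690379 to 119708260 (plus strand, GRCm38), encodes the cytosolic HMG-CoA synthase. It had 77.5 and 80.4 CPM with wild-type ezrin and 85.9 and 83.9 with T567D, against 139 and 142 with the empty vector and 158 and 150.3 with T567A. All 4 wild-type and T567D libraries were low and none came near the other 4. The mean difference was -0.85 ± 0.05 and the smallest of the 4 was -0.73 (adjusted p = 1.9e-07). Fdps, the farnesyl diphosphate synthase that bisphosphonate drugs inhibit, had 169.6 and 169 CPM with wild-type ezrin and 192 and 194 with T567D, against 293 and 254 with the empty vector and 319 and 348 with T567A. Fdps was low in all wild-type and T567D libraries, by -0.74 ± 0.05. Idi1, the isopentenyl diphosphate isomerase, had 57.4 and 60.9 CPM with wild-type ezrin and 69.3 and 59.0 with T567D, against 90.6 and 87.9 with the empty vector and 138 and 125 with T567A, and was highest with T567A. Dhcr7, the reductase of the last step to cholesterol, ranged over 11.4 to 13.1 CPM in the active-ezrin lines against 17.4 to 23.7 CPM in the vector/T567A lines, with a smallest difference of -0.49 (adjusted p = 0.0017). The calls of these 4 genes did not depend on a single library.

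Within the group T567A lay further from the active-ezrin lines than the empty vector did. The median of the 25 genes was -0.45 for wild type minus empty vector and -0.90 for wild type minus T567A, and -0.27 and -0.66 for T567D minus the same 2 lines. Between T567A and the empty vector 16 of the 25 genes were called higher with T567A and 0 lower, in a comparison that calls 23.7% of all genes higher. The 10 members that were not set apart included Sqle, the squalene epoxidase gene, with a smallest difference of -0.09 (adjusted p = 0.32), and Srebf2, the transcription factor gene of the pathway, with a mean difference of -0.18 ± 0.05 and a smallest one of -0.09. The 15 genes lie on 11 chromosomes, with at most 3 on 1 of them, chromosome 13, which carries Hmgcs1 and Idi1. The other tested genes within the same 10 Mb had a median mean difference of -0.17 around Hmgcs1 and 0.00 around Idi1. Around Hmgcs1 these neighbours stood at -0.33 for wild type minus empty vector and -0.03 for wild type minus T567A, whereas Hmgcs1 stood at -0.83 and -0.97. For T567D minus empty vector, the smallest difference of Hmgcs1, they stood at -0.34 and Hmgcs1 at -0.73. For T567D minus T567A the values were -0.0004 and -0.86. Parental cells had 108 and 121 CPM of Hmgcs1, between the 2 sides, and 62.0 and 60.7 CPM of Idi1, within the range of the wild-type and T567D libraries.

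The 250 bases before the Hmgcs1 start are shown because genes of this pathway moved together and sterol-regulated promoters are known for 2 elements. Capitals mark matches, on either strand, to the letters TCACNCCAC, a form of the sterol response element, and CCAAT, the box bound by NF-Y.
Hmgcs1 (chr13:119690101-119690350, plus strand, GRCm38.p6): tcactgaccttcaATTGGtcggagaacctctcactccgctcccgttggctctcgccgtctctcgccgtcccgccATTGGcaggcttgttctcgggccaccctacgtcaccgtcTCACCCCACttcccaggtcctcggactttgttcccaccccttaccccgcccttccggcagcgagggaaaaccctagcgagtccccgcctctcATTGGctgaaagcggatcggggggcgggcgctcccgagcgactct
In this RefSeq promoter the sterol element lies 137 bases before the start and 3 CCAAT boxes, read on the opposite strand, begin 237, 176 and 45 bases before it, with no overlap between the matches. Promoter entries matched 8 of the 15 set-apart cholesterol genes. The sterol letters occurred in 1 of the 8, Hmgcs1, and in 1.05% of all 32851 promoters. CCAAT occurred in 7 of the 8 (Hmgcs1, Idi1, Lss, Cyp51, Msmo1, Dhcr7 and Insig1), in 33.8% of all promoters and in 41.5% of those of 9735 tested genes.

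Of 15 tested genes of fatty acid synthesis 4 were set apart, all lower (1.37% of all genes): the desaturase genes Scd2, Fads1 and Fads2 and the elongase gene Elovl6. In the mean difference 11 were called lower (16.9% of all genes) and 0 higher. Other genes of these enzyme families did not pass in all 4 comparisons, among them Scd1 (largest adjusted p = 0.83), Elovl5 (0.49) and Elovl1 (0.56). Scd2, a stearoyl-CoA desaturase, had 243 and 227 CPM with wild-type ezrin and 284 and 272 with T567D, against 411 and 404 with the empty vector and 751 and 802 with T567A. The T567A libraries were the highest, and the mean difference was -1.14 ± 0.05. Fads2 ranged over 138 to 165 CPM in the active-ezrin lines against 194 to 268 CPM in the vector/T567A lines and Fads1 over 143 to 157 CPM in the active-ezrin lines against 175 to 196 CPM in the vector/T567A lines, without overlap. Elovl6 differed by -0.44 ± 0.05, a call lost without empty-vector replicate 2 or 3 or T567D replicate 3. Scd2, Fads1 and Fads2 lie on chromosome 19, where their neighbours had a median mean difference of 0.09 around Scd2 and 0.08 around the Fads genes. For T567D minus T567A alone these medians were -0.02 and -0.02.

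**Figure D2:**
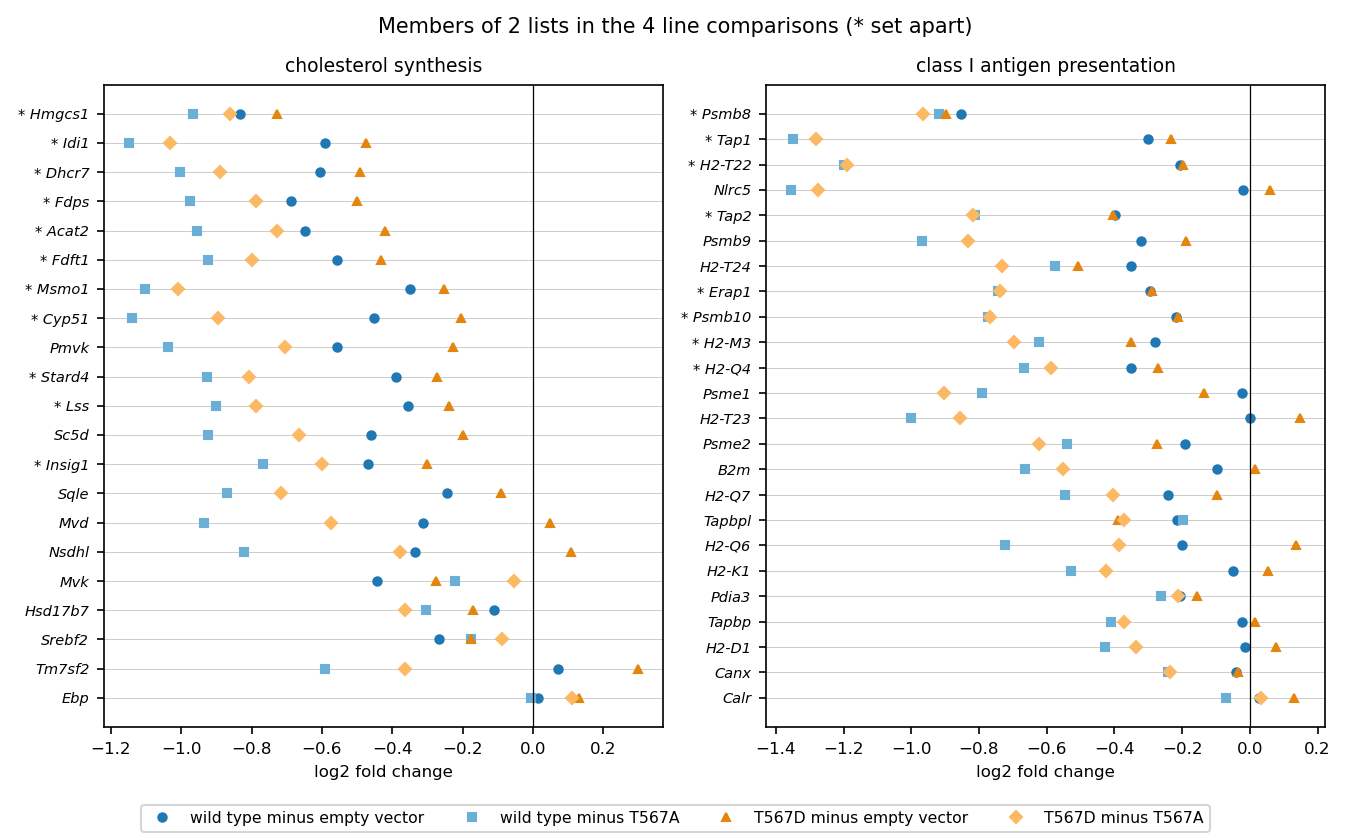
Log2 fold changes (horizontal axes) of 21 of the 25 tested members of the cholesterol synthesis list (left) and all tested members of the class I antigen presentation list (right, 24 genes) in the 4 line comparisons, 1 marker per comparison, with an asterisk at set-apart genes. For 11 and 8 of the members drawn all 4 markers lie below 0 and pass the test, and the markers against T567A mostly lie further left than those against the empty vector.

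Of 22 tested chemokine and cytokine genes 4 were set apart, all lower with wild-type and T567D ezrin (1.37% of all genes), namely Cxcl1, Cxcl5, Ccl2 and Ccl7. In the mean difference 11 were called lower (16.9% of all genes) and 3 higher (16.3%), the higher ones including Cxcl12 (0.27 ± 0.05) and Clcf1 (0.37 ± 0.05). Cxcl1 (plus strand of chromosome 5, 90891241 to 90893115), a chemokine that attracts neutrophils, had 47.1 and 48.0 CPM with wild-type ezrin and 39.4 and 39.1 with T567D, against 129 and 124 with the empty vector and 113 and 103 with T567A. The 2 sides were far apart and the lines of a side were close, so that Cxcl1 was the 1 lower gene above 2-fold in every comparison (-1.43 ± 0.05, smallest -1.18, adjusted p = 1.6e-11). Parental cells had 29.2 and 29.5 CPM, below all 8 derived libraries. Cxcl5, a related chemokine gene near it on the chromosome, had 32.1 and 31.9 CPM with wild-type ezrin and 25.0 and 30.3 with T567D, against 152 and 148 with the empty vector and 54.0 and 47.8 with T567A. Here the empty-vector line stood above the T567A line as well. Ccl2, which attracts monocytes, ranged over 97.3 to 125 CPM in the active-ezrin lines against 154 to 286 CPM in the vector/T567A lines, and its adjacent relative Ccl7 over 31.7 to 41.2 CPM in the active-ezrin lines against 47.7 to 108 CPM in the vector/T567A lines, a call lost without wild-type replicate 1 or 3 or empty-vector replicate 2 or 3. Nfkbiz, which encodes an atypical IkB protein that acts in the nucleus, had 12.7 and 12.7 CPM with wild-type ezrin and 10.5 and 13.0 with T567D, against 26.2 and 24.4 with the empty vector and 20.2 and 16.4 with T567A, and was low on the same side (smallest -0.52, adjusted p = 0.0017).

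The bases before the Cxcl1 start are shown because Cxcl1 was the lower gene with the widest gap. Capitals mark matches on either strand to a form of the NF-kB element, GGGAA and TTCC with any 1 base between them.
Cxcl1 (chr5:90890995-90891244, plus strand, GRCm38.p6): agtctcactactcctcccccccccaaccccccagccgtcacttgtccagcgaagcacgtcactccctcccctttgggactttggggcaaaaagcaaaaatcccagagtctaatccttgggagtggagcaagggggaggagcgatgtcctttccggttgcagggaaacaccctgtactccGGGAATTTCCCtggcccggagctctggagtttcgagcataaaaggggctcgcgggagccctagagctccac
The element starts 71 bases before the start site, where matches on the 2 strands overlap. The same letters occurred in 0.283% of all promoters, in 0.421% of those of tested genes, in 2 of the 135 lower set-apart genes with an entry and in 1 of the 128 higher ones.

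Class I antigen presentation is the route by which peptides reach the cell surface on MHC class I molecules. Of 24 tested genes 8 were set apart, all lower (1.37% of all genes), and 23 were called lower in the mean difference (16.9% of all genes). Psmb8, a catalytic subunit of the immunoproteasome, had 71.7 and 69.6 CPM with wild-type ezrin and 64.7 and 72.2 with T567D, against 134 and 121 with the empty vector and 125 and 141 with T567A. Its libraries formed 2 blocks that did not overlap, and the sides differed by -0.91 ± 0.05 (smallest -0.85, adjusted p = 9.7e-08). T567A minus empty vector was 0.07 (adjusted p = 0.47). The peptide transporter gene Tap2 had 69.4 and 64.0 CPM with wild-type ezrin and 62.2 and 70.7 with T567D, against 91.7 and 84.1 with the empty vector and 114 and 121 with T567A. Tap2 was thus lower by -0.61 ± 0.05, with the T567A libraries highest. Tap1, adjacent to Psmb8 and Tap2 on chromosome 17, differed by -0.79 ± 0.05. The peptide-trimming gene Erap1 ranged over 98.7 to 104 CPM in the active-ezrin lines against 120.2 to 178 CPM in the vector/T567A lines and the class Ib gene H2-M3 over 27.2 to 31.8 CPM in the active-ezrin lines against 37.5 to 49.0 CPM in the vector/T567A lines, calls lost without some single libraries (wild-type replicate 1 or 3, empty-vector replicate 3 or T567D replicate 3 for both, and empty-vector replicate 2 for H2-M3). H2-Q4 and H2-T22, whose reads can be shared with near-identical copies, were also set apart. The count of 8 became 3 without either empty-vector library and 4 without either wild-type or either T567D library. Parental cells had 188 and 184 CPM of Psmb8, above all derived libraries.

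In the interferon-response list the differences lay mostly against T567A. Of 45 tested genes 43 were called lower in the mean difference (16.9% of all genes), with a median of -0.65, yet 4 were set apart lower (1.37%). The median was -1.22 for wild type minus T567A and -1.16 for T567D minus T567A, but -0.07 for wild type minus empty vector and -0.06 for T567D minus empty vector. Against the empty vector 8 genes were lower and 4 higher with wild-type ezrin (7.36% and 8.25% of all genes), and 44 of 45 were higher in T567A than in the empty vector (23.7% of all genes). The 4 set-apart genes were the guanylate-binding protein genes Gbp2 and Gbp3, the RNA sensor gene Ifih1 and the ubiquitin ligase gene Herc6. Gbp2 had 103 and 99.3 CPM with wild-type ezrin and 99.3 and 94.6 with T567D, against 124 and 127 with the empty vector and 225 and 231 with T567A. Gbp3 had 143 and 140.0 CPM with wild-type ezrin and 145 and 149 with T567D, against 180.5 and 183 with the empty vector and 472 and 441 with T567A. In both, the T567A libraries were far above the rest and the empty-vector libraries only a little above the wild-type and T567D ones. Herc6 and Ifih1 had smallest differences of -0.27 and -0.23, and each call was lost without either empty-vector library, wild-type replicate 1 or T567D replicate 3.

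**Figure D3:**
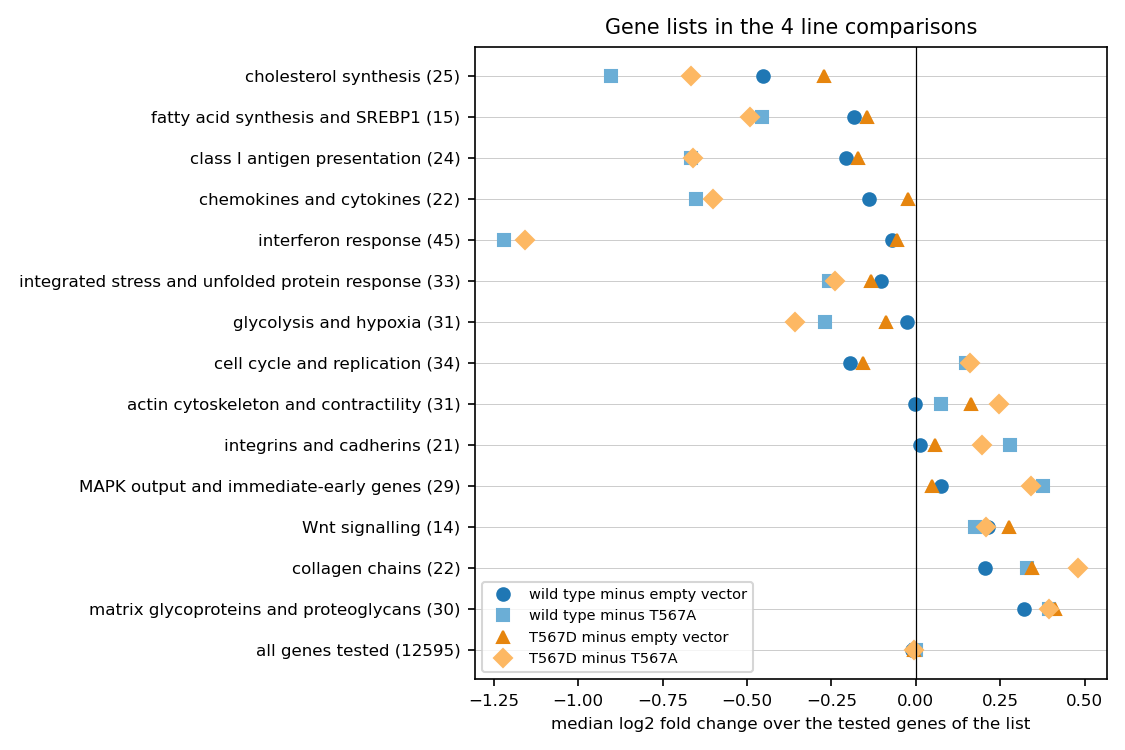
Median log2 fold change (horizontal axis) over the tested genes of 14 lists and of all genes, with 1 marker for each of the 4 line comparisons and the number of tested genes in brackets. Cholesterol synthesis lies at -0.27 to -0.90 in all 4 comparisons, whereas the interferon list lies at -0.07 and -0.06 against the empty vector and at -1.22 and -1.16 against T567A.

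Of 33 tested genes of the integrated stress and unfolded protein responses 6 were set apart, all lower (1.37% of all genes). In the mean difference 17 were called lower (16.9% of all genes), 1 higher (16.3%) and 15 in neither direction. The 6 were the transcription factor gene Atf4, its targets Trib3, Asns, Mthfd2 and Aldh1l2, and the protein disulfide isomerase gene Pdia4. Trib3, a pseudokinase, had 34.3 and 34.2 CPM with wild-type ezrin and 30.4 and 28.9 with T567D, against 48.7 and 44.4 with the empty vector and 59.2 and 66.1 with T567A. Its T567D libraries were lowest and its T567A libraries highest. Asns, which makes asparagine, ranged over 193 to 211 CPM in the active-ezrin lines against 249.6 to 290.2 CPM in the vector/T567A lines (-0.42 ± 0.04), and the folate enzyme gene Mthfd2 over 133 to 143 CPM in the active-ezrin lines against 164 to 201 CPM in the vector/T567A lines, a call lost without empty-vector replicate 2 or T567D replicate 1. Atf4 ranged over 351 to 385 CPM in the active-ezrin lines against 434 to 596 CPM in the vector/T567A lines, and its call was lost without empty-vector replicate 2 or either wild-type library. The count of 6 fell to 2 without empty-vector replicate 2 and to 3 without either wild-type library or T567D replicate 1.

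Of 31 glycolysis and hypoxia genes 5 were set apart lower (1.37% of all genes) and 1 higher (1.36%), and 14 were not called in the mean difference, among them Hk2, Pkm, Eno1 and Vegfa. The lower ones were the phosphofructokinase gene Pfkl (174 to 181 CPM in the active-ezrin lines against 216 to 284 CPM in the vector/T567A lines), Tpi1, the lactate dehydrogenase gene Ldha (818 to 905 CPM in the active-ezrin lines against 1058 to 1262 CPM in the vector/T567A lines), the kinase gene Pdk1, which holds back pyruvate dehydrogenase, and the collagen hydroxylase gene P4ha1. Pdk1 had 15.1 and 15.9 CPM with wild-type ezrin and 13.9 and 13.1 with T567D, against 19.8 and 23.1 with the empty vector and 27.0 and 28.8 with T567A, and its call was lost without empty-vector replicate 3. That of Ldha was lost without empty-vector replicate 2 or wild-type replicate 1. The count of 5 fell to 3 without wild-type replicate 1 or either empty-vector library. The 1 higher gene was Egln3, a prolyl hydroxylase that marks hypoxia-inducible factors for decay. Egln3 (chromosome 12) had 16.0 and 15.0 CPM with wild-type ezrin and 24.3 and 25.2 with T567D, against 7.69 and 9.43 with the empty vector and 1.86 and 2.17 with T567A. Egln3 was lowest with T567A and highest with T567D, and it had the largest mean difference of the 59 set-apart genes named by rule (2.23 ± 0.10), with a smallest difference of 0.86 (adjusted p = 3.5e-05). Parental cells, at 14.5 and 13.7 CPM, were close to the wild-type line.

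Among lower genes outside these groups, Asic1, an acid-sensing ion channel, ranged over 6.4 to 9.99 CPM in the active-ezrin lines against 13.0 to 18.9 CPM in the vector/T567A lines and Car13, a carbonic anhydrase, over 38.9 to 42.3 CPM in the active-ezrin lines against 57.6 to 81.4 CPM in the vector/T567A lines. Both kept their calls without any single library.

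Among the genes that were higher with wild-type and T567D ezrin, Apcdd1, a membrane inhibitor of Wnt signalling, had 28.7 and 23.4 CPM with wild-type ezrin and 23.97 and 30.7 with T567D, against 14.3 and 14.3 with the empty vector and 6.63 and 8.63 with T567A. The lowest active-ezrin library lay well above the highest empty-vector one, and T567A was lowest. It had the widest gap of the higher genes with at least 10 CPM (1.35 ± 0.10, smallest 0.87, adjusted p = 2.2e-04), while parental cells were lower than all lines, at 3.66 and 4.43 CPM. Pink1, a kinase of mitochondrial quality control, had 18.8 and 17.4 CPM with wild-type ezrin and 19.2 and 19.6 with T567D, against 10.3 and 11.1 with the empty vector and 9.11 and 11.6 with T567A. Its 4 differences were of nearly equal size, from 0.76 to 0.89. Fat1, a giant protocadherin of cell contacts, had 460.4 and 459.7 CPM with wild-type ezrin and 507 and 473 with T567D, against 273 and 327 with the empty vector and 315 and 269 with T567A. Fat1 was high in the 4 active-ezrin libraries, and its empty-vector and T567A libraries overlapped each other.

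Hip1r, which couples clathrin-coated pits to actin, ranged over 9.6 to 15.4 CPM in the active-ezrin lines against 2.97 to 7.18 CPM in the vector/T567A lines, and its call was lost without wild-type replicate 1. Nrap, an actin-anchoring protein gene of muscle, ranged over 18.1 to 27.1 CPM in the active-ezrin lines against 9.8 to 12.4 CPM in the vector/T567A lines. Ephb6, an Eph receptor without kinase activity, ranged over 16.0 to 22.1 CPM in the active-ezrin lines against 9.46 to 11.8 CPM in the vector/T567A lines, a call lost without wild-type replicate 1 or T567D replicate 3, and the homeobox gene Irx3 over 13.0 to 14.3 CPM in the active-ezrin lines against 4.06 to 9.1 CPM in the vector/T567A lines. The basement membrane gene Ntn4 had 30.0 and 27.8 CPM with wild-type ezrin and 29.1 and 28.4 with T567D, against 17.1 and 21.2 with the empty vector and 9.32 and 11.3 with T567A. In these 5 the T567A line had the lowest mean of the derived lines. Parental cells were lower still in Ephb6 (0.697 and 0.933 CPM) and Irx3 (3.72 and 3.27 CPM), and above the T567A line in Hip1r, Nrap and Ntn4. In Bace1, the beta-secretase gene, and Cpe, a carboxypeptidase of secretory granules, it was the empty vector that was lowest. Cpe had 35.7 and 37.0 CPM with wild-type ezrin and 49.5 and 48.6 with T567D, against 17.3 and 16.7 with the empty vector and 25.1 and 24.2 with T567A, and Bace1 ranged over 10.7 to 12.3 CPM in the active-ezrin lines against 4.52 to 7.8 CPM in the vector/T567A lines. Abca2, a lipid transporter gene, ranged over 19.6 to 27.8 CPM in the active-ezrin lines against 11.2 to 13.5 CPM in the vector/T567A lines. Parental cells had far more of Abca2 (114 and 115 CPM) and Cpe (129 and 131 CPM) than any derived line.

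**Figure D4:**
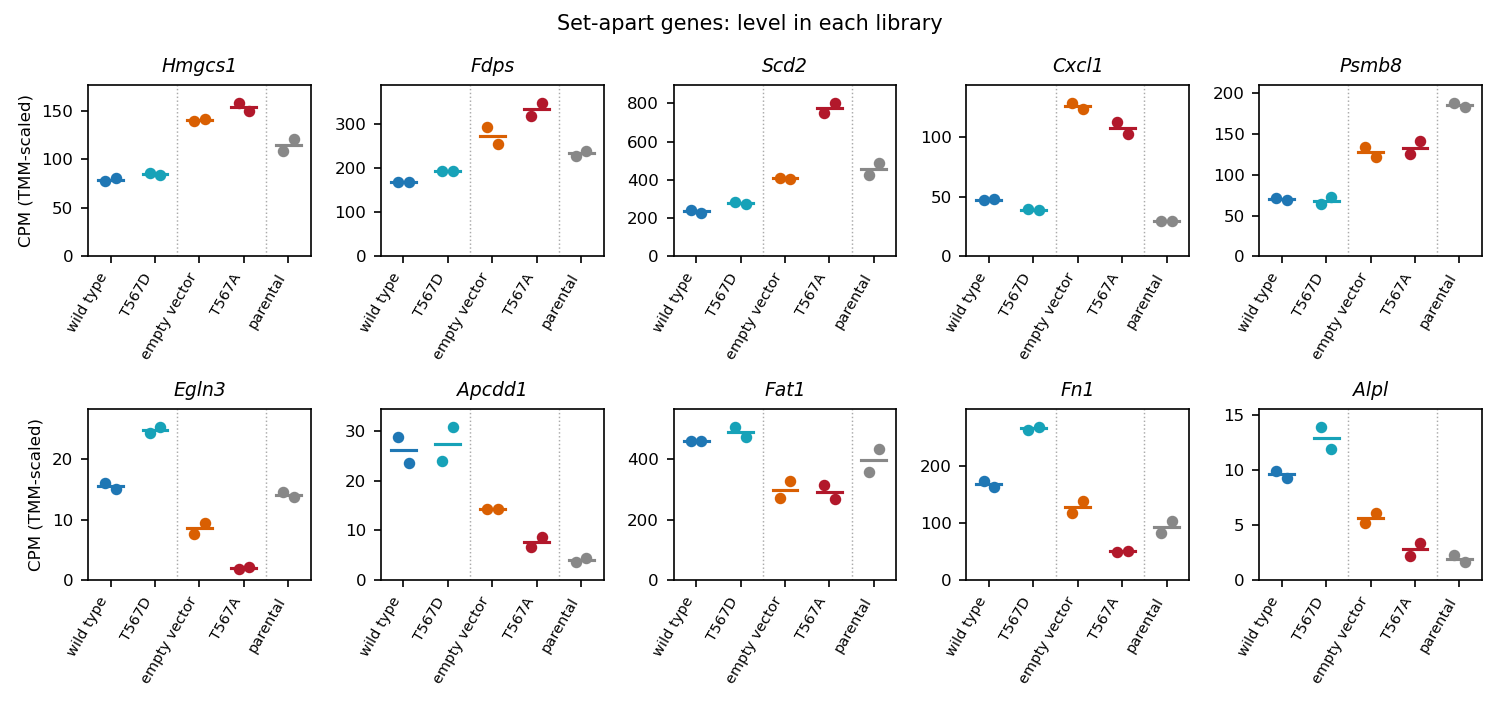
TMM-scaled CPM (vertical axes, from 0) of 10 set-apart genes in each library, with points for libraries, bars for the mean of 2, and dotted lines between the sides and before the parental line. In the upper row the wild-type and T567D libraries lie below the empty-vector and T567A libraries, and in the lower row they lie above them, with no overlap in any panel.

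Of 30 tested matrix glycoprotein and proteoglycan genes 2 were set apart higher (1.36% of all genes) and 1 lower (1.37%), while 18 had line means in the higher order (18.3% of all genes) and the list median was 0.30. Fn1, which encodes fibronectin, had 173 and 162 CPM with wild-type ezrin and 263 and 268 with T567D, against 118 and 139 with the empty vector and 49.9 and 51.4 with T567A. The 4 lines were ordered T567D, wild type, empty vector and T567A, with a mean difference of 1.38 ± 0.07. The smallest difference, 0.38 (adjusted p = 0.009), was lost without empty-vector replicate 2 or wild-type replicate 1. Sparcl1, a counter-adhesive matrix gene, ranged over 2.27 to 3.29 CPM in the active-ezrin lines against 0.557 to 1.33 CPM in the vector/T567A lines, and its call was lost without any of the wild-type or empty-vector libraries. The lower member was Spp1, which encodes osteopontin, at 245 to 263 CPM in the active-ezrin lines against 291 to 313 CPM in the vector/T567A lines, a call lost without any of these 4 libraries or either T567D library and with upper-quartile scaling. Collagen chains gave 1 set-apart gene of 22, higher (1.36% of all genes), namely Col6a2 (9.99 to 11.9 CPM in the active-ezrin lines against 2.76 to 7.52 CPM in the vector/T567A lines). In the mean difference 12 collagen genes were called higher (16.3% of all genes) and 1 lower (16.9%).

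Of 31 actin and contractility genes 3 were set apart, all higher (1.36% of all genes), with 17 called higher (16.3%) and 5 lower (16.9%) in the mean difference, the lower calls being near the share over all genes. Acta2, smooth muscle actin, had 48.0 and 41.8 CPM with wild-type ezrin and 58.6 and 59.6 with T567D, against 23.7 and 20.9 with the empty vector and 35.8 and 39.1 with T567A. Its empty-vector libraries were the lowest derived ones, with parental cells lower still at 12.0 and 10.8 CPM. The call against T567A (0.26, adjusted p = 0.023) was lost without wild-type replicate 1 or T567A replicate 2. The non-muscle myosin heavy chain gene Myh9 ranged over 1235 to 1479.8 CPM in the active-ezrin lines against 1022 to 1151 CPM in the vector/T567A lines and the cytoplasmic actin gene Actg1 over 3048 to 3153 CPM in the active-ezrin lines against 2392 to 2791 CPM in the vector/T567A lines, whose reads can be shared with copies. Both calls were lost without either empty-vector library, wild-type replicate 1 or T567D replicate 3, and Actg1 also without T567A replicate 2. None of the 3 calls remained without wild-type replicate 1. Among 21 tested integrins and cadherins 1 was set apart in each direction, against 1.36% of all genes higher and 1.37% lower. The vitronectin receptor subunit gene Itgb3 ranged over 2.97 to 4.6 CPM in the active-ezrin lines against 0.578 to 1.95 CPM in the vector/T567A lines, a call lost without wild-type replicate 1 or any T567A or T567D library, and the osteoblast cadherin gene Cdh11 was lower, at 81.8 to 108 CPM in the active-ezrin lines against 129.7 to 164 CPM in the vector/T567A lines, a call lost without empty-vector replicate 2 or T567D replicate 3. Of 29 metalloproteinases and inhibitors 1 was set apart higher (1.36% of all genes) and 1 lower (1.37%). Mmp19, a matrix metalloproteinase gene, was higher at 6.23 to 7.27 CPM in the active-ezrin lines against 2.56 to 4.63 CPM in the vector/T567A lines. Adamts1, a proteoglycan-cleaving protease gene, was lower at 32.6 to 36.5 CPM in the active-ezrin lines against 41.9 to 136 CPM in the vector/T567A lines. The Mmp19 call was lost without either empty-vector library, wild-type replicate 1 or T567D replicate 3. That of Adamts1 was lost under 16 of 21 other settings, among them the removal of either parental, either empty-vector or either T567D library or of wild-type replicate 1.

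Of 16 tested osteoblast differentiation genes 2 were set apart higher (1.36% of all genes), Alpl and Ank, and 2 lower (1.37%), Spp1 and Atf4. Alpl, the alkaline phosphatase of osteoblasts, had 9.95 and 9.25 CPM with wild-type ezrin and 13.9 and 11.9 with T567D, against 5.2 and 6.07 with the empty vector and 2.21 and 3.4 with T567A. All active-ezrin libraries were higher, by 1.47 ± 0.12, with a call that was lost without empty-vector replicate 2. Ank, which exports pyrophosphate, ranged over 90.7 to 103 CPM in the active-ezrin lines against 58.3 to 78.3 CPM in the vector/T567A lines, a call lost without empty-vector replicate 3 or wild-type replicate 1. Of 29 MAPK output genes 2 were set apart higher (1.36% of all genes), the phosphatase genes Dusp6 and Dusp4, which are induced by and act on MAP kinases. Dusp6 ranged over 64.7 to 71.1 CPM in the active-ezrin lines against 49.3 to 54.5 CPM in the vector/T567A lines. Dusp4 ranged over 6.97 to 8.43 CPM in the active-ezrin lines against 3.45 to 5.32 CPM in the vector/T567A lines. The Dusp6 call was lost without T567D replicate 3 and that of Dusp4 without any wild-type or empty-vector library. Of 14 tested genes of the Wnt list 2 were set apart, both higher (1.36% of all genes). They were the co-receptor gene Lrp5 (28.2 to 31.7 CPM in the active-ezrin lines against 16.3 to 24.5 CPM in the vector/T567A lines) and the Dickkopf receptor gene Kremen1 (66.6 to 76.9 CPM in the active-ezrin lines against 59.3 to 63.6 CPM in the vector/T567A lines). Lrp5 was no longer called without T567A replicate 2, nor Kremen1 without any wild-type or empty-vector library, T567A replicate 2 or T567D replicate 3. Ltbp3, which encodes a latent TGF-beta binding protein, was the 1 set-apart gene of 26 in the TGF-beta list, against 2.72% of all genes. It had 233 and 219 CPM with wild-type ezrin and 275 and 283 with T567D, against 151 and 155 with the empty vector and 110.3 and 119 with T567A, and differed by 0.92 ± 0.04.

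No gene was set apart among 34 tested cell cycle and replication genes, 20 CCN and YAP targets, 11 genes of the insulin-like growth factor axis, 33 growth factor and guidance receptors and 13 mitochondrially encoded genes. Since 2.72% of all genes were set apart, lists of this size hold less than 1 such gene at that share, and these counts set none of the lists apart from all genes. In the cell cycle list the medians had opposite signs against the 2 lines, -0.20 and -0.16 for wild type and T567D minus empty vector and 0.15 and 0.16 for both minus T567A. Mitochondrially encoded genes had medians of 0.44 and 0.23 minus empty vector and -0.45 and -0.60 minus T567A. By edgeR 1 of the 13 was called lower in the mean difference (16.9% of all genes). Each of 5 further lists had 1 set-apart gene, likewise near the share over all genes: Loxl3 of 17 matrix cross-linking genes was higher, and Tkt of 31 NRF2 and antioxidant genes, Dhx36 of 45 RNA-binding protein and helicase genes, Eif2s2 of 34 translation factors and Slc16a1 of 28 channels and carriers were lower.

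Chromosome 19 held 27 of the 164 higher set-apart genes with an annotated position (16.5%) and 3.76% of the tested genes. Of these, 21 lay in its first 10 Mb, where 183 tested genes had medians of 0.28 for wild type minus empty vector, 0.19 for wild type minus T567A, 0.24 for T567D minus empty vector and 0.17 for T567D minus T567A. Ltbp3 and Lrp5 are among the 21, with differences above those medians in all 4 comparisons. Runs of set-apart genes with starts at most 100 kb apart lay there, the longest being B4gat1, Rin1, Yif1a, Rab1b and Klc2 (5038826 to 5118560). The part of this regional shift in the calls of the 21 genes was not tested. Lower set-apart genes were most frequent on chromosomes 14 and 13, with 3.37% and 3.34% of their tested genes. On chromosome 13 the successive 10 Mb from 90 to 120 Mb held 2, 5 and 4 of them. Medians there were -0.305, -0.339 and -0.331 for wild type minus empty vector and -0.353, -0.337 and -0.357 for T567D minus empty vector. Against T567A they were -0.002, -0.023 and -0.030 for wild type and 0.039, -0.026 and -0.002 for T567D. The part of this shift in the calls was not tested. On chromosome 11, 1.70% of the tested genes were set apart higher, against 1.36% of all genes. Its stretch from 100 to 110 Mb held 8 of them among 132 tested genes, Prkca and Itgb3 included. Medians there were 0.25 for wild type and 0.13 for T567D minus empty vector, and 0.02 and -0.09 minus T567A. The part of this shift in these 8 calls was not tested either.

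**Figure D5:**
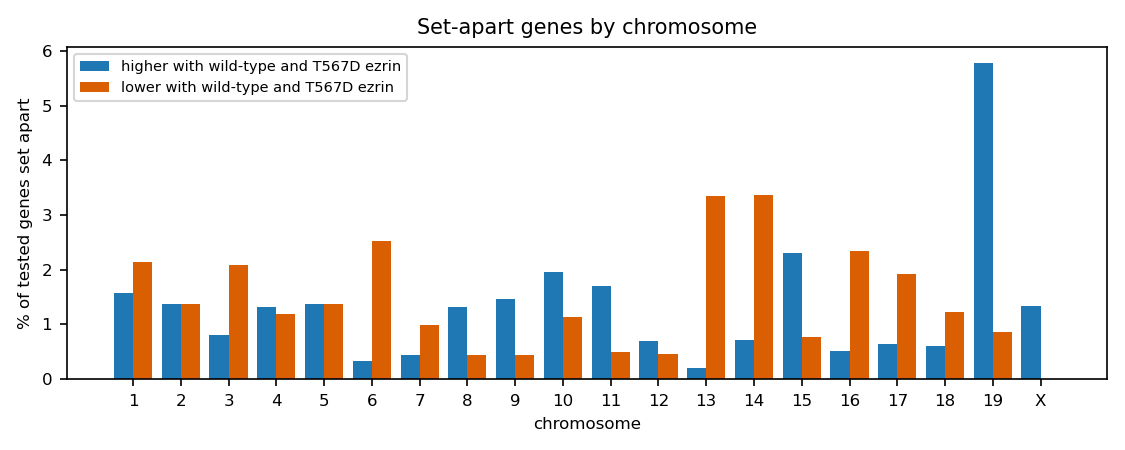
Share of the tested genes of each chromosome (vertical axis, %) that were set apart, higher (left bar) or lower (right bar) with wild-type and T567D ezrin. The higher share is 5.78% on chromosome 19, against 1.36% over all genes tested, and the lower share is 3.37% on chromosome 14.

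Parental cells lay on either side. Their mean lay on or beyond the wild-type and T567D side for 57 of the 171 higher genes, on or beyond the empty-vector and T567A side for 77, and between them for 37. For the 172 lower genes these counts were 71, 53 and 48. The summed macrophage markers were 1376 to 1427 CPM with wild-type and T567D ezrin and 1587 to 1724 CPM with the empty vector and T567A, almost all of it Csf1r, the receptor gene for the macrophage growth factor CSF1, which was set apart lower (-0.23 ± 0.04, adjusted p = 0.029). The Csf1r call was lost without either empty-vector or either wild-type library. It was also lost without either parental library, though these belong to neither side. Adgre1 had no counts, and Ptprc, Aif1 and Tyrobp had at most 0.414 CPM. Cd14 was detected in every derived library, at 32.4 to 34.2 CPM with wild-type and T567D ezrin and 32.7 to 40.4 CPM with the empty vector and T567A, and Cd68 at 2.33 to 2.63 CPM and 1.80 to 2.15 CPM in the same lines. In the other direction Lyz2 (1.05 to 2.25 CPM in the active-ezrin lines against 0.207 to 0.752 CPM in the vector/T567A lines), Fabp4 (3.2 to 7.74 CPM in the active-ezrin lines against 0.612 to 1.98 CPM in the vector/T567A lines) and Sox9 (2.4 to 3.43 CPM in the active-ezrin lines against 1.21 to 1.59 CPM in the vector/T567A lines), members of the macrophage, adipocyte and chondrocyte lists, were set apart higher at low levels, with Adipoq, Plin1, Lep, Cidec, Acan and Col9a1 at 0 counts.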

How the data were processed

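Libraries of poly-A RNA from mouse K7M2 cells were strand-marked with dUTP and read on DNBSEQ, per the labels' protocols. The authors deposited raw counts and RPKM values per gene name, over 41743 names, for each library. The submitters' processing notes name GRCm38. Aligner, counter, annotation and use of strand: not given in the sources used here. Overlapping, antisense and near-identical genes thus have uncertain counts.

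Groups come from the labels. Replicate numbers were not taken to pair the lines in the main fit. No 2 libraries held identical counts, and in each line they differed by more than sampling noise (chi-square per degree of freedom 2.53 to 8.93). A floor of 3 counts equals at most 0.207 CPM after TMM scaling and covers counting error only. Counts were tested with edgeR 4.0.16 (R 4.3.3): filterByExpr (minimum count 10, total 15) kept 12595 genes, TMM scaled the libraries, and 1 robust quasi-likelihood fit of 10 libraries had 5 line means and 5 residual degrees of freedom. The mean difference was the contrast of the lines with equal weight, two-sided, with Benjamini-Hochberg adjustment over all genes. Line as unit used limma 3.58.1, with the line as a block (1 within-line correlation of 0.615 shared by all genes). On simulated data with 12595 genes the test was checked too: of 100 genes each changed 1.5-fold and 2-fold in the active-ezrin lines, 65% and 76% were set apart. Among the other genes 0 were falsely set apart and 11 falsely called in the mean difference. These other genes were simulated with the same mean in all derived lines. The check therefore covers the spread within lines only. It cannot show how often differences between lines that are unrelated to the construct would give a call.

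Named genes were Ezr, Msn and Rdx, the 12 set-apart protein-coding genes of each direction with the widest smallest difference (at least 10 CPM in both lines of the higher side), and up to 4 set-apart genes (at least 2 CPM) of each list with at least 2. Csf1r, Prkca, Ltbp3, Sqle, Srebf2 and other list members were named in addition after their values were seen. The comparison, its rule and the 35 gene lists were chosen with earlier results of these data known. Positions come from GENCODE M21, matched by name, and promoters from RefSeq (GRCm38.p6). Alternatives were upper-quartile and RLE scaling, DESeq2 1.42.0, other filters, 8 libraries, a replicate block, stricter thresholds, limma on log2(RPKM + 1) and log2(RPKM + 0.1), contrasts without 1 line, and leaving out each library. Values of some genes are not reported here. Figures were drawn with matplotlib 3.10.9.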

Additional observations from a re-analysis of the deposited data

How the results depend on the processing

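The number of genes called in the mean difference (4180) was 2656 at an adjusted p under 0.01, 137 in a test against a 1.5-fold change, 221 when the 8 libraries were taken as 2 groups of 4 with no term for the line, 2713 without the T567A line, 2695 without the T567D line, and 3043 to 4609 when 1 library was left out. The set-apart genes (171 higher and 172 lower) were 75 and 73 at an adjusted p under 0.01, 6 and 2 in the 1.5-fold test, 100 and 110 with DESeq2, and 74 to 204 and 75 to 205 without 1 library. DESeq2 shared 96 of the higher and all 110 of its lower genes with the edgeR result. With the line as unit the 4 genes were 9 without a filter, 2 at an adjusted p under 0.01 and 2 to 4 without 1 library. The line order was kept by 3699 genes in the higher direction without a filter, where more genes are counted, and by 2129 to 2490 higher and 2395 to 2693 lower genes without 1 library. With the replicate block, the number of the labels as a term, 1851 genes were called in the mean difference, 71 were set apart higher and 71 lower, of which 61 and 68 were in the main result. Samples with the same number had correlations of -0.10 to 0.07 over 14 pairs in their deviations from the line means, so this check showed no pairing. With 2 libraries per line these deviations mirror each other, and lines that share both numbers repeat 1 value, so the 14 pairs are not all separate.

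No named gene changed direction under the 21 alternatives. Of the 59 named set-apart genes 2 were called in all of them, and the 1.5-fold test lost the other 57. The cause of these changes was not tested, apart from fewer libraries or a stricter threshold. The cholesterol count was 10 to 17 outside the 1.5-fold test, where it was 0. Depth limits genes near the floor, and 2 libraries per line and 2 lines per side limit every call.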

Other observations

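Genes named here were chosen after their values were seen. Several of the widest differences were in genes of low level, outside the rule for named genes. Pir, an iron-binding nuclear protein gene, had 5.06 and 5.48 CPM with wild-type ezrin and 2.08 and 2.51 with T567D, against 0.339 and 0.405 with the empty vector and 0.069 and 0.111 with T567A, and parental cells had 16.7 and 16.6 CPM. The homeobox gene Alx4, which acts in skeletal development, had 3.03 and 1.94 CPM with wild-type ezrin and 0.982 and 0.877 with T567D, against 0 and 0.0578 with the empty vector and 0.069 and 0.167 with T567A. The vector/T567A libraries were below the active-ezrin ones without overlap, and in Alx4 they lay at or under the floor of 3 counts, at most 0.207 CPM, as did the T567A libraries in Pir. Cd276, an immune checkpoint ligand gene, ranged over 3.2 to 4.03 CPM in the active-ezrin lines against 0.779 to 1.02 CPM in the vector/T567A lines, the growth factor gene Fgf2 over 3.56 to 6.3 CPM in the active-ezrin lines against 1.79 to 2.49 CPM in the vector/T567A lines, and the adhesion gene L1cam over 1.05 to 1.4 CPM in the active-ezrin lines against 0.405 to 0.509 CPM in the vector/T567A lines.

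Neighbouring genes on chromosome 2 (178411206 to 178487366) were set apart together. The cadherin gene Cdh26 had 10.0 and 9.65 CPM with wild-type ezrin and 2.19 and 1.75 with T567D, against 0.735 and 0.636 with the empty vector and 0.207 and 0.445 with T567A, Fam217b ranged over 1.64 to 9.6 CPM in the active-ezrin lines against 0.278 to 0.759 CPM in the vector/T567A lines and Ppp1r3d, a glycogen phosphatase subunit gene, over 0.292 to 0.628 CPM in the active-ezrin lines against 0 to 0.069 CPM in the vector/T567A lines. In Cdh26 the wild-type line stood well above T567D as well, and all 3 genes were under 1 CPM in each vector/T567A library. In parental cells Cdh26 was at 9.07 and 8.75 CPM and Fam217b at 9.41 and 10.0 CPM.

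Cytosolic aminoacyl-tRNA synthetases, which load amino acids onto tRNA, had 4 of 20 tested genes set apart lower, Gars (276 to 299 CPM in the active-ezrin lines against 349 to 399 CPM in the vector/T567A lines), Cars (150.1 to 169 CPM in the active-ezrin lines against 192 to 235 CPM in the vector/T567A lines), Yars (151 to 167 CPM in the active-ezrin lines against 187 to 206 CPM in the vector/T567A lines) and Farsb (53.7 to 57.9 CPM in the active-ezrin lines against 66.2 to 71.0 CPM in the vector/T567A lines), and 0 higher, beside 1.37% of all genes. In the mean difference 15 were called lower (16.9% of all genes) and 0 higher (16.3%), with a median of -0.21.

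Among single genes, Snai2, a transcription factor of cell migration, was lower (12.8 to 15.1 CPM in the active-ezrin lines against 17.3 to 30.9 CPM in the vector/T567A lines), as was the complement gene C3 (87.3 to 113 CPM in the active-ezrin lines against 123 to 134 CPM in the vector/T567A lines). Plec, which encodes the cytoskeletal linker plectin, was higher (824 to 969 CPM in the active-ezrin lines against 447 to 746 CPM in the vector/T567A lines).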
